A study of Mus musculus with 12 samples.

Results

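The 45 genes described here encode basement membrane proteins, collagens, interstitial matrix proteins, the integrins that bind them and the enzymes that modify collagen. They were chosen by symbol from the deposited table of 22467 transcripts, in which each gene is represented by 1 transcript, and all 45 were among the 12576 transcripts tested. They fall into 19 basement membrane genes, 18 interstitial matrix genes, 5 integrin and dystroglycan genes and 3 collagen-modifying enzymes and chaperones.

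Whole mouse embryos at embryonic day 8.5 were measured by ribosome profiling, which counts ribosome-protected fragments (RPF) over coding sequences, and by RNA-seq of the same embryo. The 3 wild-type embryos carried Rpl10a +/+ and the 3 mutant embryos carried Rpl10a LOF/LOF. There were 12 libraries from 6 single, unpooled embryos on a C57BL/6 background, with no other allele and no treatment before dissection. Embryos of both genotypes were dissected and lysed in solutions with cycloheximide, which holds translating ribosomes on their mRNAs. The LOF allele lost part of the first intron of Rpl10a after CRISPR editing, which lengthens the N-terminus of the RPL10A protein, a component of the large ribosomal subunit, and acts as a hypomorph rather than a null. It is present in every cell, so that effects on 1 tissue and on the whole embryo are not separated by the design.

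The extracellular matrix has 2 main forms. Basement membranes are thin sheets under epithelia, endothelia and muscle, in which laminin trimers and a type IV collagen network are joined by nidogens, perlecan and agrin. Interstitial matrix fills the mesenchyme with fibrillar collagens, fibronectin, fibrillins, hyaluronan and proteoglycans, and in the early heart tube a hyaluronan-rich layer called cardiac jelly lies between myocardium and endocardium. Cells hold both through integrins and dystroglycan.

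The fibrillar and type IV collagen chains differ in how regularly their glycine codons recur, and 4 exons are shown because they show this difference. Glycine codons are in capitals. Each exon was read from GENCODE transcripts on GRCm38 and is written 5′ to 3′ on the coding strand.
Col1a1, exon 8 of 51, chr11:94939904-94939957, plus strand: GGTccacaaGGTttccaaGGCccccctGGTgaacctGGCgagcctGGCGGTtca
Col3a1, exon 6 of 51, chr1:45325360-45325413, plus strand: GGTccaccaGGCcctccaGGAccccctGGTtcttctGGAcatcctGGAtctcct
Col4a1, exon 9 of 52, chr8:11244486-11244569, minus strand: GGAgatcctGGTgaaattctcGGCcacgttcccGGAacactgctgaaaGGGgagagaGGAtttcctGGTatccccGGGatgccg
Col4a6, exon 7 of 45, chrX:141225621-141225689, minus strand: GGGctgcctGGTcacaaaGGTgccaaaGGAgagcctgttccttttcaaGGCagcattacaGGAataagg
In Col1a1 and Col3a1 a glycine codon recurred at every 3 codons of the exon, without a break over 54 bases. In Col4a1 and Col4a6 the step of 3 was interrupted within the exon. Over the whole coding sequence the longest unbroken run of such triplets was 338 in Col1a1 and 344 in Col3a1, against 40 in Col4a1 and 45 in Col4a6. Glycine made up 28.6% of the codons of Col4a1 and 26.8% of those of Col1a1, but at most 9.39% of those of the 5 laminin chains. The share did not set every collagen apart, since it was 13.9% in the collagen gene Col26a1 and 13.7% in Emilin1, a glycoprotein gene that is not a collagen.

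Levels are given as CPM, the count relative to the library size after TMM scaling, and values of 3 embryos are given in the order of replicates 1, 2 and 3. Genes are compared with each other only per length, as RPF CPM per kb of counted coding sequence. On that scale 40 of the 45 members lay above the median of the tested transcripts in wild type, and 8 lay above the 90th percentile. Serpinh1, the collagen chaperone of the endoplasmic reticulum, was highest with 1185 ± 21.5 RPF CPM per kb (SD, n = 3). Fn1, which encodes fibronectin, followed with 344 ± 13.6, then Sparc, a collagen-binding glycoprotein, with 321 ± 6.90. The lowest member was Col9a1, a chain of a cartilage collagen, with 8.52 ± 0.55 RPF CPM per kb.

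In RPF, Hapln1 alone of the 45 members passed the threshold (false discovery rate under 0.1, edgeR's quasi-likelihood test adjusted over all tested transcripts), and it was higher in LOF/LOF. Over all tested transcripts 2.19% were called in RPF, and 1.05% were called as higher. In RNA 5 members were called, Hapln1, Vcan, Tnc, Col4a6 and Npnt, all higher in LOF/LOF. The RNA background was 5.02% called in either direction and 1.77% called as higher. No member was called lower in either readout. The calls depended on the fit and on single embryos. The alternative nearest to the authors' own test was a limma-voom fit with surrogate variables from sva. It called 12 members in RPF and 11 in RNA, all higher. Under it 5.63% and 4.12% of all transcripts were called as higher and 11.8% and 10.6% in either direction. With a covariate from Y-linked genes no member was called in either readout, where 0.175% and 0.827% of all transcripts were called. When 1 embryo was left out, the count ranged from 0 to 9 in RPF and from 0 to 4 in RNA. It was 9 in RPF without LOF/LOF replicate 2, where 5.07% of all transcripts were called as higher, and 5 without LOF/LOF replicate 1, where 0.891% were. It was 0 in RPF without LOF/LOF replicate 3 or without any 1 of the wild-type embryos, where 0.0318% to 0.533% of all transcripts were called as higher. In RNA it was 0 without wild-type replicate 1 or 3, where 0.413% and 1.53% were called as higher, 1 without LOF/LOF replicate 3 and 3 without LOF/LOF replicate 2, where 0.986% and 1.18% were. Over all the RNA omissions, 0.413% to 2% of all transcripts were called as higher. No member was called lower in any of these fits. None was called for translation efficiency, the RPF change beyond the RNA change, for which the background was 0%.

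Most members leaned upward by a small amount. The log2 fold change was above 0 in 36 of 45 members in RPF, with a median of 0.11, and in 36 of 45 in RNA, with a median of 0.10. Over all tested transcripts 50.9% were above 0 in RPF and 49.4% in RNA, with medians of 0.00 in both. At an unadjusted p under 0.05, 11 members were higher and 1 was lower in RPF, where 7.12% and 6.61% of all transcripts were. In RNA 13 members were higher and none was lower, where 7.44% and 9.6% of all transcripts were.

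In RPF the LOF/LOF embryos were uneven. LOF/LOF replicate 3 held the highest RPF value of the 6 embryos for 28 of 45 members, and LOF/LOF replicate 1 held the lowest for 19. Over all transcripts those embryos held 19.2% of the highest and 24.2% of the lowest values. Without LOF/LOF replicate 3 the median RPF log2 fold change of the members was 0.01. The median over members of the difference from the wild-type mean was -0.04, 0.08 and 0.23 on the log2 scale in LOF/LOF replicates 1, 2 and 3 in RPF. In RNA it was 0.03, 0.13 and 0.14, against -0.05, 0.06 and -0.01 in the wild-type embryos, so that LOF/LOF replicate 1 lay within the wild-type range. The RNA median of the members was 0.07 without replicate 3.

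**Figure D1:**
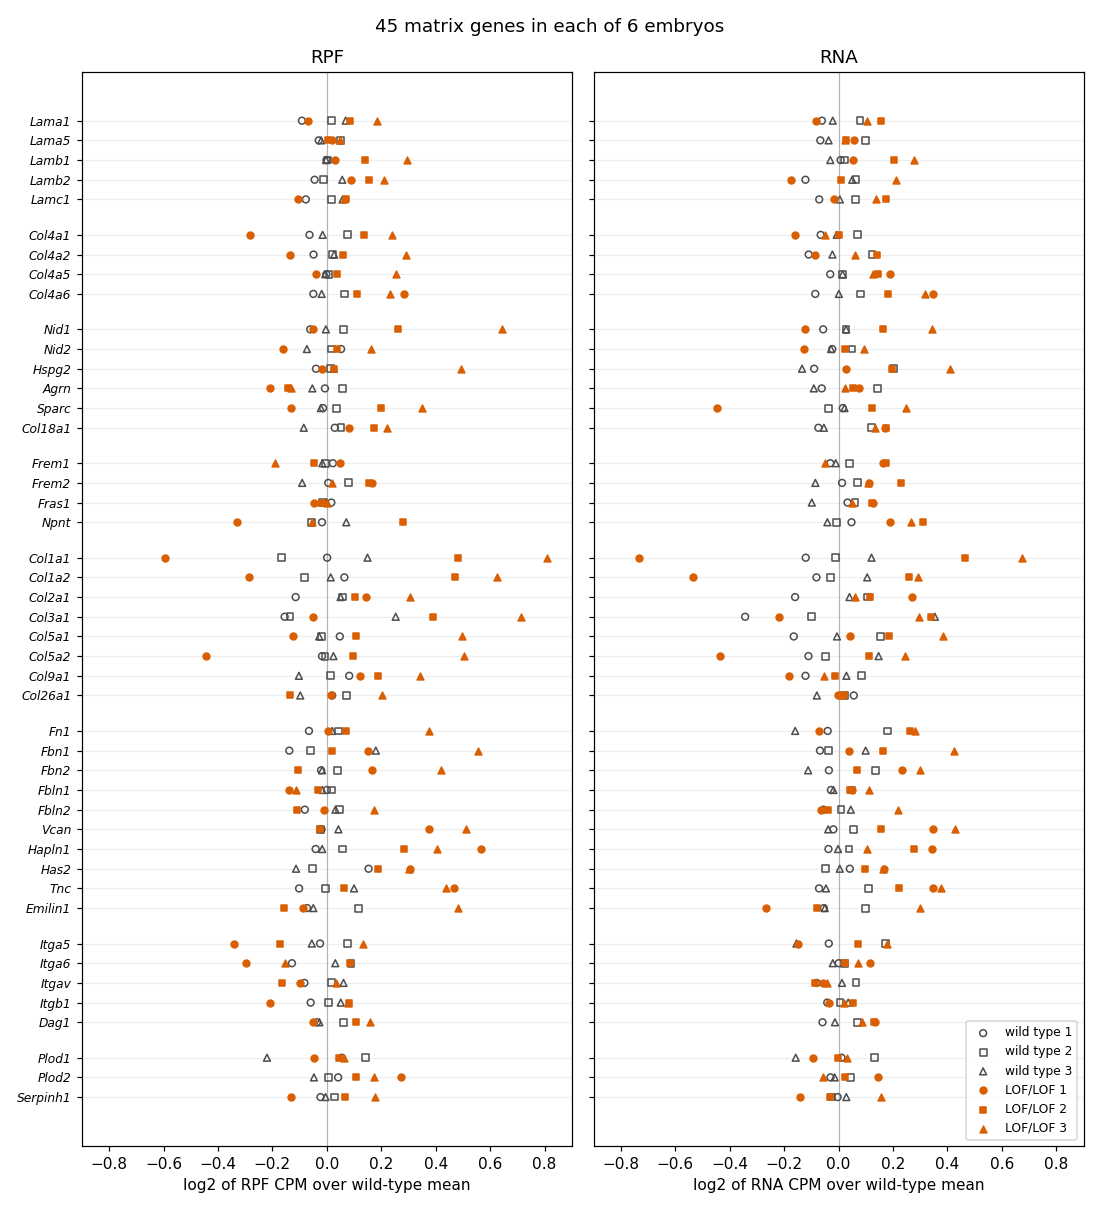
Each row is 1 of the 45 genes, grouped by role from laminin chains at the top to collagen-modifying enzymes at the bottom, and each point is 1 embryo. The horizontal axes give the log2 of CPM over the mean of the 3 wild-type embryos, for RPF on the left and RNA on the right, with open grey symbols for wild type and filled orange symbols for LOF/LOF. LOF/LOF replicate 3 (orange triangles) is the highest of the 6 embryos for 28 genes in RPF and for 20 in RNA.

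The laminin chains assemble into the trimers that start a basement membrane. None of the 5 was called, and their median log2 fold change was 0.07 in RPF and 0.06 in RNA (0.01 and 0.04 without LOF/LOF replicate 3). Lamb1, the beta chain and the most abundant of them per length, measured 689, 691 and 688 RPF CPM in wild type and 704, 759 and 846 in LOF/LOF. Its groups did not overlap in RPF or in RNA, yet the RPF log2 fold change of 0.16 ± 0.07 (SE) gave an adjusted p of 0.364 and the RNA one of 0.18 ± 0.06 gave 0.161. Lamc1, the gamma chain present in most laminins, measured 526, 561 and 577 RPF CPM in wild type and 515, 582 and 579 in LOF/LOF. The 2 groups of Lamc1 overlapped. Lama1, Lama5 and Lamb2 had RPF log2 fold changes between 0.02 and 0.15.

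Type IV collagen chains form the network of the basement membrane. They lie on the genome as head-to-head pairs. Col4a1 and Col4a2 on chromosome 8 share 22 bases at their starts, on opposite strands, and Col4a6 and Col4a5 on the X chromosome are 1308 bases apart. The 2 pairs differed in level. Col4a1 reached 120 ± 5.91 and Col4a2 69.8 ± 2.02 RPF CPM per kb in wild type, while Col4a5 reached 16.7 ± 0.08 and Col4a6 10.7 ± 0.45.

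Col4a6 was the 1 type IV chain called, in RNA. Its RNA measured 48.0, 53.8 and 50.9 CPM in wild type and 64.7, 57.7 and 63.5 in LOF/LOF, without overlap (log2 fold change 0.27 ± 0.07, adjusted p = 0.063). Its RPF measured 51.7, 56.1 and 52.9 CPM in wild type and 65.2, 57.8 and 62.9 in LOF/LOF, also without overlap, but the log2 fold change of 0.21 ± 0.08 was not called (adjusted p = 0.282). Both values were lowest among the LOF/LOF embryos in replicate 2. That is the LOF/LOF embryo with wild-type levels of 4 Y-linked genes, whose summed RPF was 163 to 181 CPM in wild type, 153 in LOF/LOF replicate 2, and 9.33 and 0.38 in LOF/LOF replicates 1 and 3. With this sum as a covariate Col4a6 was no longer called in RNA (log2 fold change 0.19, adjusted p = 0.568). The RNA of its neighbour Col4a5 was also separated by genotype (76.3, 78.8 and 78.7 against 88.9, 86.1 and 85.1 CPM), and its log2 fold change of 0.15 ± 0.05 missed the threshold (adjusted p = 0.123). Col4a1 was not called, with 566, 624 and 585 RPF CPM in wild type and 486, 650 and 698 in LOF/LOF. LOF/LOF replicate 1 lay below every wild-type embryo and the other 2 above.

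The linkers join the laminin and collagen networks. None of the 6 was called, and they had a median RPF log2 fold change of 0.16, which was 0.02 without LOF/LOF replicate 3 and 0.03 with a covariate from Y-linked genes. Nid1, nidogen-1, bridges laminin and type IV collagen, and its RPF was 131, 142 and 136 CPM in wild type and 132, 164 and 213 in LOF/LOF. Sparc, an abundant product of parietal endoderm and of mesenchyme, measured 270, 279 and 268 RPF CPM in wild type and 248, 312 and 347 in LOF/LOF. LOF/LOF replicate 1 lay within the wild-type range for Nid1 and below it for Sparc, and the other 2 LOF/LOF embryos were above it for both. Hspg2, which encodes the proteoglycan perlecan, measured 717, 743 and 750 RPF CPM in wild type and 727, 750 and 1036 in LOF/LOF, so that only replicate 3 lay clearly above wild type. Col18a1, the collagen that releases endostatin, measured 649.9, 660.5 and 601 RPF CPM in wild type and 674, 719 and 742 in LOF/LOF, without overlap (log2 fold change 0.16 ± 0.07, adjusted p = 0.309).

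Agrn, the proteoglycan that organises the neuromuscular junction, was the member furthest in the other direction. Its RPF measured 372, 389 and 360 CPM in wild type and 323, 338 and 341 in LOF/LOF, without overlap, and its RNA measured 262, 302 and 257 against 289, 284 and 279 CPM, which overlapped. The log2 fold change was -0.16 ± 0.06 in RPF (adjusted p = 0.280) and 0.05 ± 0.06 in RNA. Its translation efficiency log2 fold change was -0.21 ± 0.09 and was not called (unadjusted p = 0.033, adjusted p above 0.9).

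Fras1, Frem1 and Frem2 anchor the epidermal basement membrane, and Npnt encodes nephronectin, a ligand of an integrin in kidney and heart development. Npnt was called in RNA, with 33.4, 32.2 and 31.4 CPM in wild type and 36.9, 40.1 and 38.9 in LOF/LOF (log2 fold change 0.26 ± 0.07, adjusted p = 0.091). The 2 groups did not overlap in RNA. Its RPF measured 28.6, 27.9 and 30.4 CPM in wild type and 23.0, 35.1 and 27.9 in LOF/LOF, a log2 fold change of -0.01 ± 0.14. In RPF LOF/LOF embryos lay on both sides of wild type. The translation efficiency log2 fold change of -0.27 ± 0.16 was not called (unadjusted p = 0.110, edgeR's quasi-likelihood test). A difference between the RNA and RPF changes of Npnt was therefore not shown. Npnt had among the fewest reads of the members, with 158 to 313 RPF counts over the 6 libraries. Frem2, the most abundant of the Fraser genes per length, measured 506, 533 and 473 RPF CPM in wild type and 565, 561 and 510 in LOF/LOF, and its log2 fold change of 0.11 ± 0.07 was not called. Frem1 and Fras1 had RPF log2 fold changes of -0.06 and -0.02.

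**Figure D2:**
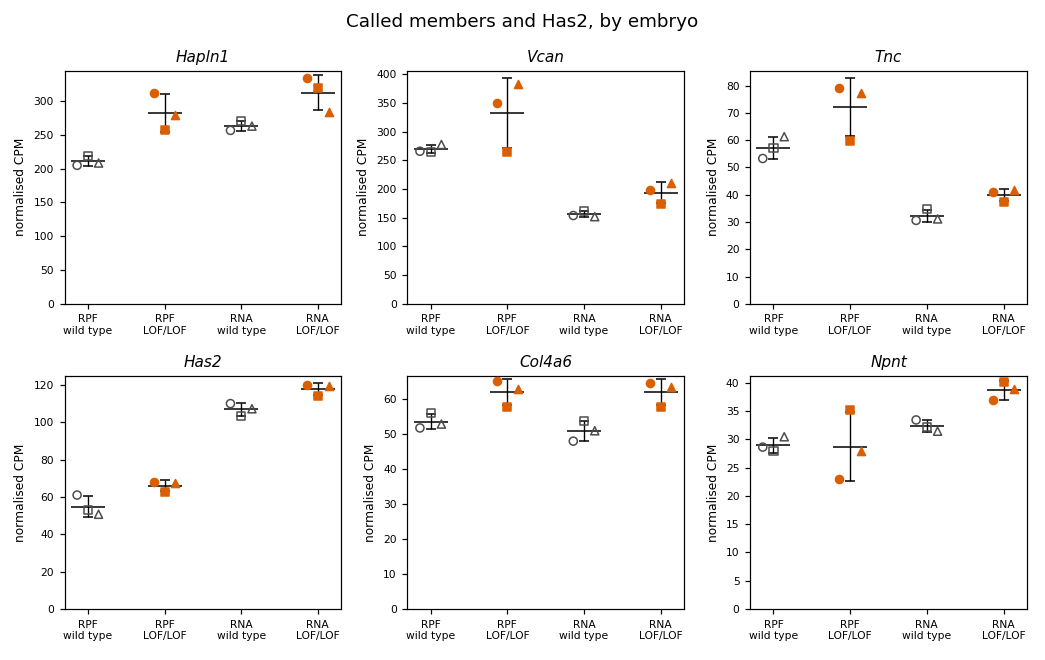
Each panel shows 1 gene, with normalised CPM on the vertical axis from 0 and the RPF and RNA libraries of each genotype along the horizontal axis. Circles, squares and triangles are replicates 1, 2 and 3, and bars are the mean and SD of 3 embryos. Hapln1 is separated between genotypes in RPF and RNA, while for Vcan the RPF of LOF/LOF replicate 2 lies at the lowest wild-type value.

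Fibrillar collagens give tissues their tensile strength, and the 4 members with the largest coefficient of variation of RPF among LOF/LOF embryos were Col1a1, Col5a2, Col1a2 and Col3a1. None of the 8 interstitial collagen chains was called. Col1a1, the alpha-1 chain of type I collagen, measured 329, 292 and 364 RPF CPM in wild type and 218, 459 and 575 in LOF/LOF. LOF/LOF replicate 1 was below every wild-type embryo and replicates 2 and 3 were above every one. Its mean was 328 ± 35.9 in wild type and 417 ± 182 in LOF/LOF (SD, n = 3), with a log2 fold change of 0.35 ± 0.25 and an adjusted p of 0.594.

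The RNA of Col1a1 had the same arrangement, with 112, 121 and 133 CPM in wild type and 73.2, 168 and 195 in LOF/LOF. Col1a2, the partner chain, measured 244, 220 and 235 RPF CPM in wild type and 191, 323 and 359 in LOF/LOF. Col5a2, a chain of the type V collagen that nucleates collagen fibrils, measured 98.7, 99.5 and 102 RPF CPM in wild type and 73.5, 107 and 142 in LOF/LOF. For all 3 genes the lowest and the highest embryo of the 6 were both LOF/LOF, replicates 1 and 3. Without LOF/LOF replicate 1 the fold changes of Col1a1 and Col1a2 were called as higher in RPF and in RNA, and for Col1a1 they reached 0.65 in RPF (adjusted p = 0.046) and 0.56 in RNA (adjusted p = 0.019). Without LOF/LOF replicate 3 they were 0.05 and -0.02.

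Col3a1, the type III chain, overlapped between groups, with 163, 165 and 217 RPF CPM in wild type and 175, 238 and 298 in LOF/LOF (log2 fold change 0.39 ± 0.17, adjusted p = 0.330). Col2a1, the collagen of cartilage and of the sheath around the notochord, did not vary in this way. It measured 246, 277 and 276 RPF CPM in wild type and 294, 286 and 329 in LOF/LOF, without overlap, and its log2 fold change was 0.19 ± 0.08 (adjusted p = 0.305). Col5a1, Col9a1 and Col26a1 had RPF log2 fold changes from 0.04 to 0.22.

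Over the 45 members the median coefficient of variation of RPF between embryos was 4.27% in wild type and 10.8% in LOF/LOF, and it was larger in LOF/LOF for 39 members, or 86.7%. Over all tested transcripts the medians were 7.21% and 11.7%, and 70.5% had the larger value in LOF/LOF. Over transcripts with a mean CPM over all libraries at least that of the lowest member, the medians were 4.58% and 8.86%, and 77.7% had the larger value in LOF/LOF. Col1a1 had the largest value, 43.7% in LOF/LOF against 10.9% in wild type, and Col5a2 had 31.8% against 1.51%.

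**Figure D3:**
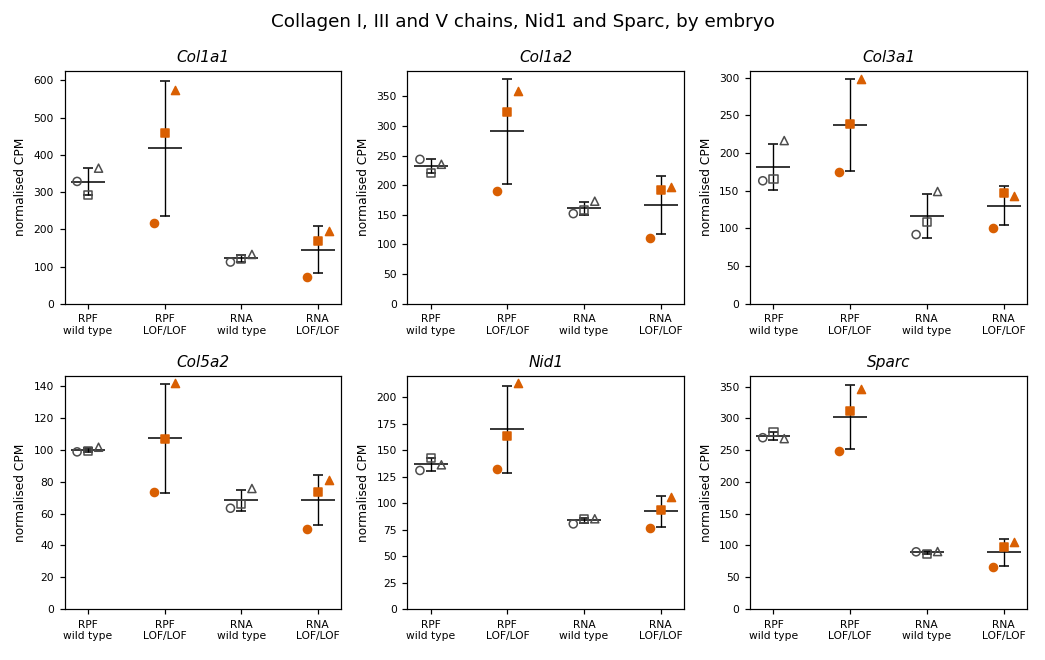
Each panel shows 1 gene, with normalised CPM on the vertical axis from 0 and RPF and RNA of each genotype along the horizontal axis. Circles, squares and triangles are replicates 1, 2 and 3, and bars are the mean and SD of 3 embryos. In Col1a1 the LOF/LOF embryos span 218 to 575 RPF CPM and enclose the wild-type range of 292 to 364.

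The interstitial glycoproteins, proteoglycans and hyaluronan genes held Hapln1, the 1 member called in both readouts. Of the 10, 1 was called in RPF and 3 in RNA, where 2.19% and 5.02% of all transcripts were called. The median log2 fold changes were 0.22 in RPF and 0.18 in RNA. These medians were 0.06 and 0.12 without LOF/LOF replicate 3, and -0.03 and 0.09 with a covariate from Y-linked genes. Hapln1 encodes the link protein that fastens proteoglycans to hyaluronan, Vcan encodes the proteoglycan versican, and Has2 encodes the main hyaluronan synthase of the embryo. All 3 products belong to the cardiac jelly. Hapln1 and Vcan are also neighbours on chromosome 13, at 89539796 to 89611652 on the plus strand and 89657056 to 89742244 on the minus strand, with 45403 bases between the 2 transcripts.

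The RPF of Hapln1 measured 205, 219 and 208 CPM in wild type and 312, 257 and 279 in LOF/LOF, and its RNA measured 257, 270.5 and 263 CPM in wild type and 334, 319 and 283 in LOF/LOF. Every LOF/LOF embryo was above every wild-type embryo in both. The log2 fold change was 0.42 ± 0.08 in RPF (1.34-fold, adjusted p = 0.044) and 0.25 ± 0.06 in RNA (1.19-fold, adjusted p = 0.069). Its translation efficiency log2 fold change of 0.18 ± 0.10 was not called (unadjusted p = 0.114). Leaving out LOF/LOF replicate 3 or any 1 wild-type embryo raised the adjusted p in RPF to between 0.120 and 0.273, while the log2 fold change stayed between 0.34 and 0.49 over all 6 omissions.

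Vcan RNA measured 154, 162 and 152 CPM in wild type and 199, 174 and 210.0 in LOF/LOF, without overlap (log2 fold change 0.31 ± 0.07, 1.24-fold, adjusted p = 0.043). Vcan RPF measured 266, 265 and 278 CPM in wild type and 350, 265 and 384 in LOF/LOF, and here LOF/LOF replicate 2 lay at the lowest wild-type value. The RPF log2 fold change of 0.30 ± 0.11 was not called (adjusted p = 0.257). The Vcan transcript in the table is a short form of 2321 bases that lacks the long chondroitin sulfate exons, so that reads from those exons are not in these counts.

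Has2 was separated in both readouts without being called. It measured 61.1, 52.9 and 50.8 RPF CPM in wild type and 67.9, 62.5 and 67.7 in LOF/LOF (log2 fold change 0.26 ± 0.09, adjusted p = 0.223), and its RNA log2 fold change was 0.14 ± 0.05 (adjusted p = 0.148). Tnc encodes tenascin-C, an anti-adhesive glycoprotein of remodelling tissue. Its RNA measured 30.6, 34.7 and 31.1 CPM in wild type and 40.9, 37.5 and 41.7 in LOF/LOF, without overlap (log2 fold change 0.31 ± 0.08, adjusted p = 0.078). Its RPF measured 53.3, 57.0 and 61.3 CPM in wild type and 79.1, 59.8 and 77.4 in LOF/LOF, and replicate 2 lay within the wild-type range (log2 fold change 0.33 ± 0.11, adjusted p = 0.203).

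For Vcan and Tnc the LOF/LOF embryo nearest to wild type was replicate 2, the one with Y-linked counts. With the Y-linked sum as a covariate the RPF log2 fold change was -0.01 for Vcan, 0.11 for Tnc and 0.34 for Hapln1, and no member was called in RPF or in RNA. The RNA log2 fold change was 0.16 for Vcan and 0.22 for Tnc, below the values without the covariate, and 0.33 for Hapln1 and 0.29 for Npnt, above them, with adjusted p-values from 0.174 to 0.564 in edgeR's quasi-likelihood test. Over all 15 alternatives the RNA log2 fold change lay between 0.19 and 0.33 for Hapln1 and between 0.23 and 0.29 for Npnt. Of all transcripts 22 were then called in RPF and 104 in RNA. Because all 3 wild-type embryos had Y-linked counts and 2 of 3 LOF/LOF embryos had few, embryo sex and genotype cannot be fully told apart.

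The remaining glycoproteins were not called. Fn1 measured 2421, 2612 and 2569 RPF CPM in wild type and 2542, 2658 and 3288 in LOF/LOF. Replicate 3 alone stood well above wild type. Fbn1 and Fbn2, the fibrillins of elastic microfibrils, had RPF log2 fold changes of 0.26 ± 0.13 and 0.18 ± 0.11. Fbln1, the microfibril-associated fibulin-1, measured 466, 472 and 461 RPF CPM in wild type and 424, 455 and 431 in LOF/LOF, below wild type without overlap (log2 fold change -0.09 ± 0.06, adjusted p = 0.525). Fbln2 and Emilin1 had RPF log2 fold changes of 0.03 and 0.12.

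**Figure D4:**
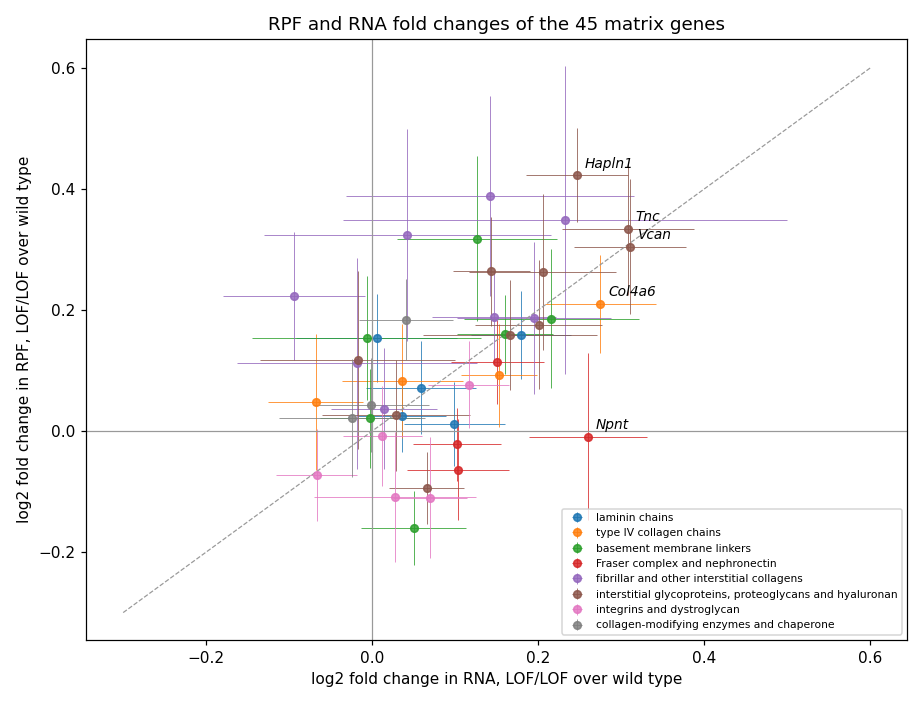
Each point is 1 of the 45 genes, coloured by role, with the log2 fold change in RNA on the horizontal axis, the log2 fold change in RPF on the vertical axis and bars of 1 SE. The dashed line marks equal change in both. The 5 named genes were called in RNA, and Hapln1 also in RPF, where it lies at 0.42.

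Integrins are pairs of an alpha and a beta chain that link the matrix to the cytoskeleton. None of the 4 integrin chains or Dag1, the precursor of dystroglycan, was called, and 4 of the 5 had an RPF log2 fold change below 0, with a median of -0.07. Itgb1, the beta-1 chain shared by most matrix-binding integrins and the most abundant of them, measured 524, 548 and 565 RPF CPM in wild type and 472, 578 and 577 in LOF/LOF (log2 fold change -0.01 ± 0.08). The groups overlapped. Dag1 measured 185, 198 and 186 RPF CPM in wild type and 184, 205 and 212 in LOF/LOF, also with overlap. Itga5, the fibronectin receptor chain, Itga6, a laminin receptor chain, and Itgav had RPF log2 fold changes between -0.11 and -0.07, with SEs from 0.08 to 0.11. In RNA 4 of the 5 were above 0, with a median of 0.03, and the groups of Itga6 and Dag1 did not overlap, with LOF/LOF higher (log2 fold changes 0.07 and 0.12, adjusted p = 0.482 and 0.258). All 5 translation efficiency log2 fold changes were below 0, from -0.18 to -0.01, and none was called. The difference between the receptors and the matrix genes was not tested.

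Serpinh1, Plod1 and Plod2 act on collagen inside the cell, the latter 2 as lysyl hydroxylases. Serpinh1 measured 1392, 1442 and 1410 RPF CPM in wild type and 1290, 1482 and 1601 in LOF/LOF, with LOF/LOF replicate 1 below and replicates 2 and 3 above wild type as in Col1a1. Its log2 fold change was 0.04 ± 0.08 in RPF and 0.00 ± 0.07 in RNA. Plod2 measured 182, 178 and 171 RPF CPM in wild type and 214, 191 and 200 in LOF/LOF, without overlap (log2 fold change 0.18 ± 0.07, adjusted p = 0.253). Plod1 had an RPF log2 fold change of 0.02 ± 0.10.

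Counted over all roles, every LOF/LOF embryo lay above every wild-type embryo for 9 of 45 members in RPF and 12 of 45 in RNA, where 9.92% and 10.2% of all transcripts did. Lamb1, Col4a6, Col18a1, Hapln1 and Has2 did so in both, as did 3.06% of all transcripts. Every LOF/LOF embryo lay below for Agrn and Fbln1 in RPF and for no member in RNA, where 9.45% and 12.6% of all transcripts did.

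Translation efficiency was examined as the ratio of RPF per kb to RNA per kb, scaled so that 1 is the median transcript of the same embryo. The ratio was above 1 for 32 of 45 members in wild type. Sparc (2.73 ± 0.11), Fbln1 (2.73 ± 0.06) and Hapln1 (2.70 ± 0.03) were highest, at percentiles 93.9 to 94.1 of all transcripts, and did not differ from each other beyond their spread. Col1a1 followed with 2.22 ± 0.22, at percentile 89.3, while its partner Col1a2 lay at percentile 56.9. Frem1 was lowest with 0.52 ± 0.02. Without division by length Sparc, Col1a1 and Fbln1 were at percentiles 99.1, 98.4 and 97.9, but Hapln1 was at 1.01 and percentile 50.1, so that its place rests on the length of its transcript, 5715 bases with 1071 of coding sequence. Transcript lengths are those of the annotated form, so that untranslated regions longer or shorter in the embryo would shift a gene's ratio in both genotypes.

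Between genotypes no translation efficiency difference was called, and at an unadjusted p under 0.05 there were 1 higher and 2 lower members, where 2.48% and 1.96% of all transcripts were. These were Col9a1, with ratios of 0.99, 0.81 and 0.78 in wild type and 1.05, 0.99 and 1.11 in LOF/LOF (log2 fold change 0.32 ± 0.13), Agrn, described above, and Fbln1. The ratio of Fbln1 was 2.78, 2.66 and 2.73 in wild type and 2.36, 2.59 and 2.29 in LOF/LOF (log2 fold change -0.16 ± 0.07). The ratios of the 2 genotypes did not overlap in Agrn and Fbln1, and met at 0.99 in Col9a1. The median translation efficiency log2 fold change was 0.00 over all members, -0.02 over the 19 basement membrane genes and 0.05 over the 18 interstitial matrix genes.

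**Figure D5:**
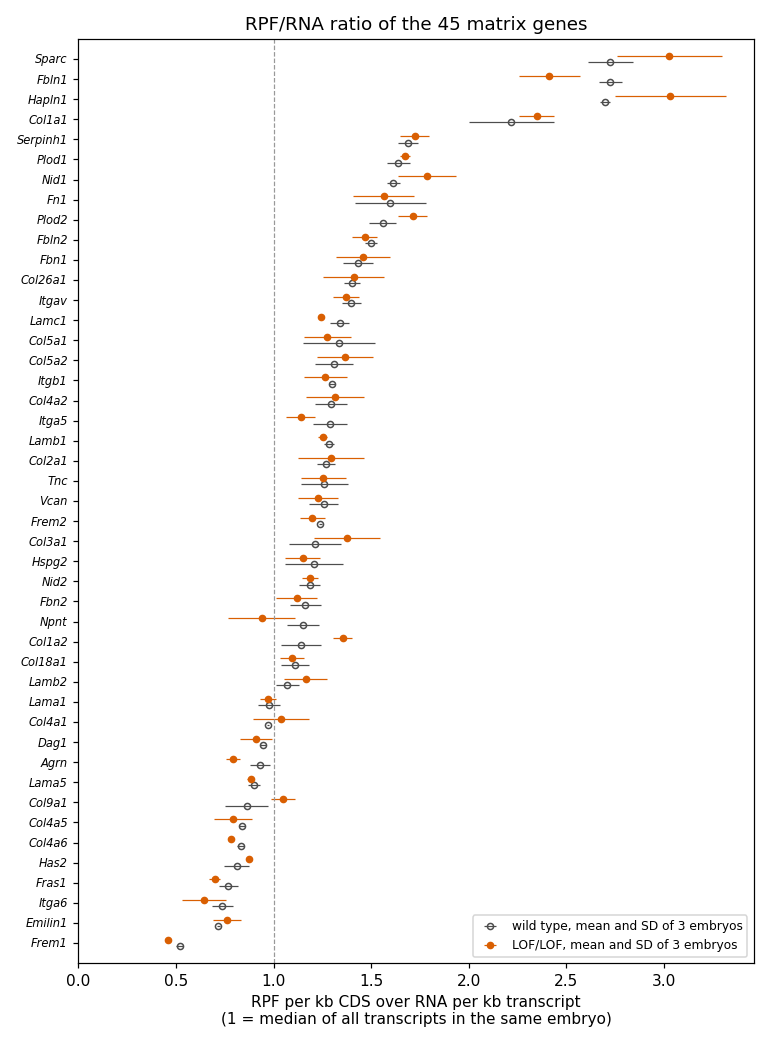
Each row is 1 of the 45 genes in order of its wild-type ratio, with RPF per kb of coding sequence over RNA per kb of transcript on the horizontal axis, where 1 (dashed) is the median of all transcripts in the same embryo. Points and bars are the mean and SD of 3 embryos, open grey for wild type and filled orange for LOF/LOF. Sparc, Fbln1 and Hapln1 lie above 2 in both genotypes, and Frem1 is lowest.

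A further 102 matrix genes, among them other collagens, proteases and their inhibitors, small leucine-rich proteoglycans and glypicans, were examined as a wider list, of which 90 could be tested. None was called in RPF, where 18 were higher and 1 was lower at an unadjusted p under 0.05, or in translation efficiency, where 8 were higher and none was lower. In RNA 5 were higher and 6 were lower at that p, and 45 of the 90 had a log2 fold change above 0. The shares of all transcripts were 7.12% higher and 6.61% lower in RPF, 7.44% and 9.6% in RNA, and 2.48% and 1.96% in translation efficiency. In RNA 2 of the 90 were called, or 2.22%, where 5.02% of all transcripts were called in RNA and 2.19% in RPF. Mmp2, a gelatinase, was called higher in RNA, with 97.0, 91.9 and 99.6 CPM in wild type and 107, 113 and 115 in LOF/LOF. Its log2 fold change was 0.21 ± 0.05 (adjusted p = 0.058). Lum, the fibril-binding lumican, was called lower, with 27.3, 24.1 and 31.4 CPM against 14.9, 19.9 and 18.0 (log2 fold change -0.65 ± 0.14, adjusted p = 0.032). Neither gene's groups overlapped in RNA. The median log2 fold change of this list was 0.09 in RPF and 0.00 in RNA.

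Facts of the libraries bear on these values. Rpl10a itself was lower in LOF/LOF in RPF (log2 fold change -0.64 ± 0.07, adjusted p = 0.0069) and in RNA (-0.23 ± 0.06, adjusted p = 0.068). The summed RPF of 12 visceral endoderm markers ranged from 6354 to 8334 CPM in wild type and from 2245 to 4771 in LOF/LOF, with 8 of the 11 tested called lower and Apoc2 at 0 in every RPF library. Their summed RNA was 3173 to 3987 CPM in wild type and 895 to 2232 in LOF/LOF, with all 11 tested called lower. The RPF sum was lowest in LOF/LOF replicate 3, the embryo with the highest RPF of most members. The sum of 4 heart markers was 637 to 743 CPM in wild type and 861 to 1085 in LOF/LOF, with Tnnt2 and Myh6 called higher in RPF. In RNA it was 284 to 311 CPM against 362 to 379, with Tnnt2, Myh6 and Myl7 called higher. In RPF both this sum and Hapln1 were highest in LOF/LOF replicate 1, while in RNA the sum was highest in replicate 2 and Hapln1 in replicate 1. The sum of 7 primitive blood markers was 837 to 2817 CPM in wild type and 3513 to 5783 in LOF/LOF, and 3 were called higher, and in RNA it was 402 to 1698 against 1519 to 2544, which overlapped, and 1 was called higher. The sum of 8 endothelial markers was 489 to 508 RPF CPM in wild type and 464, 524 and 624 in LOF/LOF replicates 1, 2 and 3, and in RNA it was 375 to 381 CPM against 345, 407 and 486. Replicate 1 was below and replicates 2 and 3 above wild type, the arrangement also seen in Col1a1, Col1a2 and Sparc. In RPF it was also seen, among other members, in Col4a1, Col4a2, Col5a1, Col5a2, Lamc1, Itgb1, Dag1 and Serpinh1. LOF/LOF replicate 1 held the lowest RPF value for 24.2% of all transcripts, and how many had the full arrangement was not counted. None of the 8 endothelial markers was called in RPF or RNA. Of 4 parietal endoderm, 5 notochord, 5 somite and sclerotome, 4 neural and 3 neural crest markers none was called in RPF or RNA. The part of these cell types in the members' differences was not tested, and in whole embryos fewer cells of a type and less RNA per cell cannot be told apart.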

How the data were processed

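The authors trimmed reads with cutadapt, removed PCR duplicates by unique molecular identifiers with UMI-tools and aligned with Bowtie2 to GENCODE transcripts on GRCm38 (mm10). The deposited counts are raw: RPF reads whose A site fell in the coding sequence without its first 15 and last 5 codons, and RNA reads over the whole transcript. The extracts were of single embryos; the authors did not determine sex. Totals were 7041357 to 10863499 RPF counts and 9132521 to 26561843 RNA counts per library, and members held 1.45% to 1.86% of RPF and 0.89% to 1.05% of RNA counts. The spread between embryos sets the precision.

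Transcripts with over 0.75 CPM in at least 3 RPF libraries were kept (12576 of 22467), scaled by TMM separately for RPF and RNA, and tested with edgeR 4.0.16 (quasi-likelihood, genotype only; R 4.3.3). Translation efficiency was the interaction of genotype and library kind over 12 libraries. P-values were adjusted over all transcripts by Benjamini-Hochberg, with a threshold of 0.1. Alternatives used DESeq2 1.42.0, limma 3.58.1 and sva 3.50.0. The authors tested differential translation with voom and limma, removed batch effects with sva and took significance from locfdr. The limma-voom fit with sva is therefore the alternative nearest to theirs. Embryos were the replicates, and with 3 against 3 an exact permutation test of 1 gene cannot go below p = 0.1. Symbols, positions and lengths came from GENCODE M21 by transcript ID, of which 14 of 22467 were unmatched. RPF and RNA deviations of the same embryo correlated across transcripts at r = 0.18 to 0.40; with embryo as a term, as without it, no transcript was called for translation efficiency, so this fit had no call to change.

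Genes named are all members called in any comparison, the 2 most abundant per length in each role, called genes of the wider list, and others singled out after their values were seen. The members and lists were chosen with earlier results of these data known. Scripts were tested on simulated data. Protein sequences were not used here.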

Additional observations from a re-analysis of the deposited data

How the results depend on the processing

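In RPF the count of members called was 1 with DESeq2, limma-voom, RLE scaling, no filter on low counts, the stricter filter of over 2 CPM and the correction for GC content, where 2.19% to 2.62% of all transcripts were called. It was 12 with limma-voom and 2 surrogate variables from sva, 2 with the replicate block and 0 with the Y-linked covariate, where 11.8%, 2.49% and 0.175% of all transcripts were called. It was 0 to 9 when 1 embryo was left out: 9 without LOF/LOF replicate 2 (11.5% of all transcripts), 5 without LOF/LOF replicate 1 (1.52%), and 0 without LOF/LOF replicate 3 (0.318%) or any 1 wild-type embryo (0.0318% to 1.2%). In RNA it was 5 under the first 5 of these alternatives (3.51% to 5.63% of all transcripts). These were the 5 genes named above as called in RNA, except that DESeq2 called Lamb1 and not Npnt. The count was 7 with the GC correction (6.07%), under which 390 of 763 called transcripts were higher in LOF/LOF against 222 of 631 without it. It was 11 with sva, 2 with the replicate block and 0 with the Y-linked covariate, where 10.6%, 4.2% and 0.827% of all transcripts were called. It was 0 to 4 when 1 embryo was left out (1.1% to 4.72% of all transcripts), with 0 without wild-type replicate 1 or 3. Every member called under any alternative was higher in LOF/LOF. No member was called in translation efficiency under any of the 16 alternatives, and of all transcripts at most 26 were, without LOF/LOF replicate 2. Same-numbered embryos of the 2 genotypes did not deviate together (r from -0.10 to 0.09), so that the block pairs embryos by number only. Without LOF/LOF replicate 3 the median RPF log2 fold change fell to 0.08 for interstitial collagens and 0.06 for glycoproteins and proteoglycans. Under the Y-linked covariate the latter was -0.03. The cause of these changes was not tested. With 3 embryos a group and a median SE of 0.12 on the translation efficiency scale, small differences were below what the data could show.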
